A study of Drosophila melanogaster with 2 samples.

Results

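The genes that encode the proteasome of Drosophila melanogaster were set against the binding map of the zinc finger protein encoded by CG5204 (kmg). They were taken by name, as all protein-coding genes of the Ensembl annotation whose symbol starts with Prosalpha, Prosbeta, Rpn or Rpt followed by a number. The rule found 48 genes among the 13968 protein-coding genes on the chromosome arms. Of these, 32 encode the subunits that all tissues share, here called ubiquitous subunits, and 16 are paralogs whose symbol carries a T or an R after the number. All data came from 1 group, whole adult males of a transgenic line in which the CG5204 protein ends in eGFP. The labels give the age of the flies as unknown and do not name the promoter that drives the transgene. Chromatin was sheared by sonication and immunoprecipitated through the GFP tag in 2 biological replicates, and the control experiment that the labels name was not analysed here. In whole flies, fewer cells with a bound site and less binding per cell cannot be told apart.

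The proteasome degrades proteins tagged with ubiquitin. Its core particle stacks rings of alpha subunits, which gate the entrance, around rings of beta subunits, some of which cut peptide bonds. A regulatory particle caps the core, with a ring of Rpt ATPases that unfolds substrates, scaffold and ubiquitin-receptor Rpn subunits, and a lid that includes the deubiquitinase Rpn11. Drosophila also has paralogs of several subunits, and some of them, such as Prosalpha3T and Prosalpha6T, are known from the testis and sperm. No expression was measured here, so the paralogs are called by their names and not by a tissue. The CG5204 protein is known from spermatocytes, where it keeps genes of other cell types from being expressed out of place.

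The authors' IDR list came from the irreproducible discovery rate procedure, which compares how regions rank in both replicates. Regions nearest to members that were in this list and in the list of the pooled replicates had the same rank in each. The lowest of them, nearest to Rpn2, had rank 2829 in both. Down to that rank the IDR list therefore held the strongest pooled regions by signal. Being in the IDR list does not by itself show that a region was found in both replicates. IDR peaks stood at the start sites of 2 of the 32 ubiquitous subunit genes and of 0 of the 16 paralogs. The share was 6.25% for ubiquitous subunits (95% Wilson interval 1.73% to 20.15%) and 0% for paralogs, where a count of 0 of 16 allows up to 18.75%. Over all protein-coding genes it was 12.5%, or 1748 of 13968 genes. A gene was counted when the summit, the highest point of a peak, lay within 500 bp of an annotated transcription start site (TSS). The share of all genes lies within the interval of the ubiquitous subunits and below the limit for the paralogs, so neither class could be told from all genes at this number of members. The intervals cover counting error only, and the difference between subunits and paralogs was not tested. The genes with a peak were Rpn5 and Rpn8, both of which encode lid subunits, so the lid had 2 of 8 genes with a peak. The ATPase ring had 0 of 6, the scaffold and receptor subunits 0 of 4, the alpha ring 0 of 7 and the beta ring 0 of 7.

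Rpn5, a structural subunit of the lid, carried the strongest region of any member, and it carried it as a pair of overlapping IDR peaks upstream of its TSS. The reference sequence around both summits is shown because these are the IDR peaks closest to any proteasome TSS; it is RefSeq's Release 6 genome (build dm6), on the strand of Rpn5, with the 11 bases centred on each summit in capitals.
Rpn5 outer summit, chr3R:5789181-5789261, plus strand: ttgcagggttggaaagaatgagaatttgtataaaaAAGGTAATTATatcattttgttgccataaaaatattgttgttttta
Rpn5 inner summit, chr3R:5789385-5789461, plus strand: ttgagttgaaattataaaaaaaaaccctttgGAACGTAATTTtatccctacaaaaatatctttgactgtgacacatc
These stretches had a GC content of 24.7% and 28.6%. The median over 81-base windows at all 2868 IDR summits was 32.7%, with quartiles at 27.2% and 40.7%.

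The outer Rpn5 peak (3R, 5789006 to 5789435) had its summit 272 bp upstream of the TSS at 5789493. Its signal, the peak caller's own value on a scale that the sources do not state, was 197 in the pooled data, with a q-value of 0.000579 and rank 356 by signal. Replicate 1 had the region 239 bp upstream, at 106, and replicate 2 had it 326 bp upstream, at 93.35. The replicates therefore differed by a factor of 1.14 at this place, and both gave the region a high rank, 329 in replicate 1 and 430 in replicate 2. The inner peak (5789206 to 5789635), 72 bp upstream, had a signal of 98.7 in the pooled data, 39.96 in replicate 1 and 58.6 in replicate 2. Rpn5 shares this upstream stretch with Hat1, which encodes a histone acetyltransferase and is transcribed the other way. Starts of Hat1 lay 109 bp and 419 bp upstream of the Rpn5 TSS, and the outer summit was inside a Hat1 intron. That summit was 147 bp from a Hat1 start and the inner one 37 bp from a Hat1 start, so the peaks lay nearer to Hat1 starts than to the start of Rpn5.

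**Figure D1:**
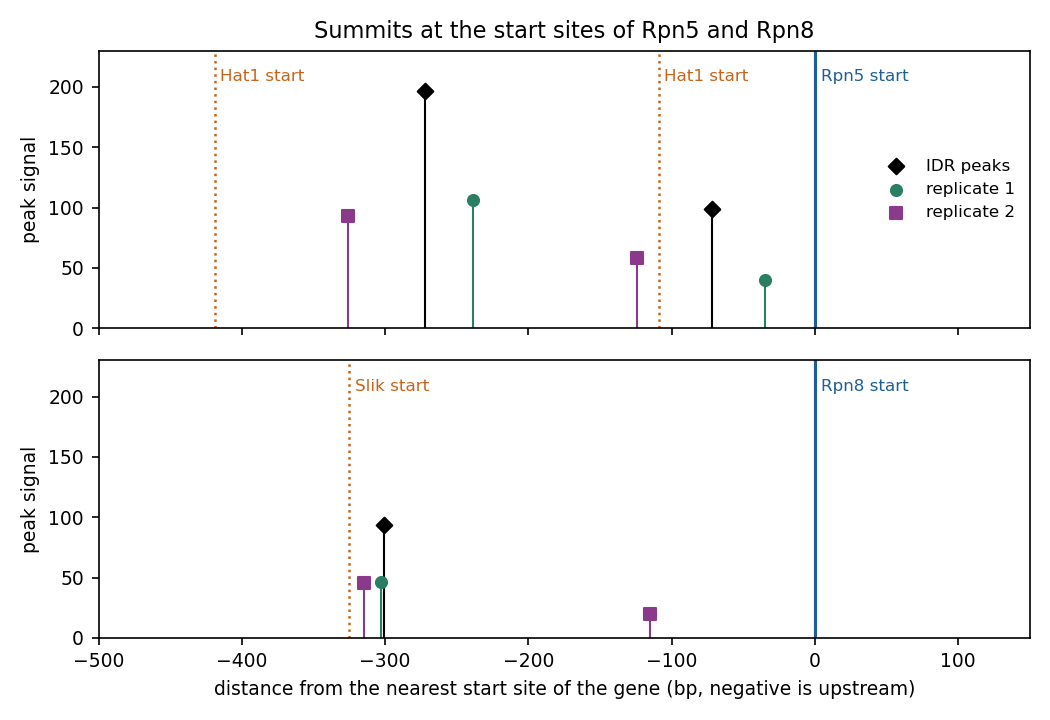
Summits around the start site of Rpn5 (upper panel) and the internal start of Rpn8 (lower panel), with the distance from that start in bp on the horizontal axis and the peak signal on the vertical axis; each stem is 1 region of the IDR list or of a replicate, and dotted lines mark starts of Hat1 and Slik on the opposite strand. Both replicates have a region near each of the 3 IDR peaks, and the closest ones at Rpn8 lie 2 bp (replicate 1) and 14 bp (replicate 2) from the IDR summit.

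Rpn8, the lid subunit that pairs with the deubiquitinase Rpn11, had its IDR peak at an internal start and not at its 5′ end. The peak (2R, 24402489 to 24402918) had a signal of 93.6, a q-value of 0.00239 and rank 1047. Its summit lay 2676 bp downstream of the 5′ end, inside an Rpn8 intron, and 301 bp upstream of a start that the annotation places 2977 bp from the 5′ end. Its signal was 46.5 in replicate 1 and 45.6 in replicate 2, a ratio of 1.02. Replicate 2 had a further region of signal 19.8, nearer to that start. Slik, which encodes a kinase and is transcribed the other way, starts 24 bp from the summit. With only the outermost TSS of each gene, Rpn8 had no promoter peak and the count of ubiquitous subunits was 1 of 32. The median signal of the strongest promoter peak over all 1748 genes with one was 97.0, so the outer Rpn5 peak was above and the Rpn8 peak just below that level.

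**Figure D2:**
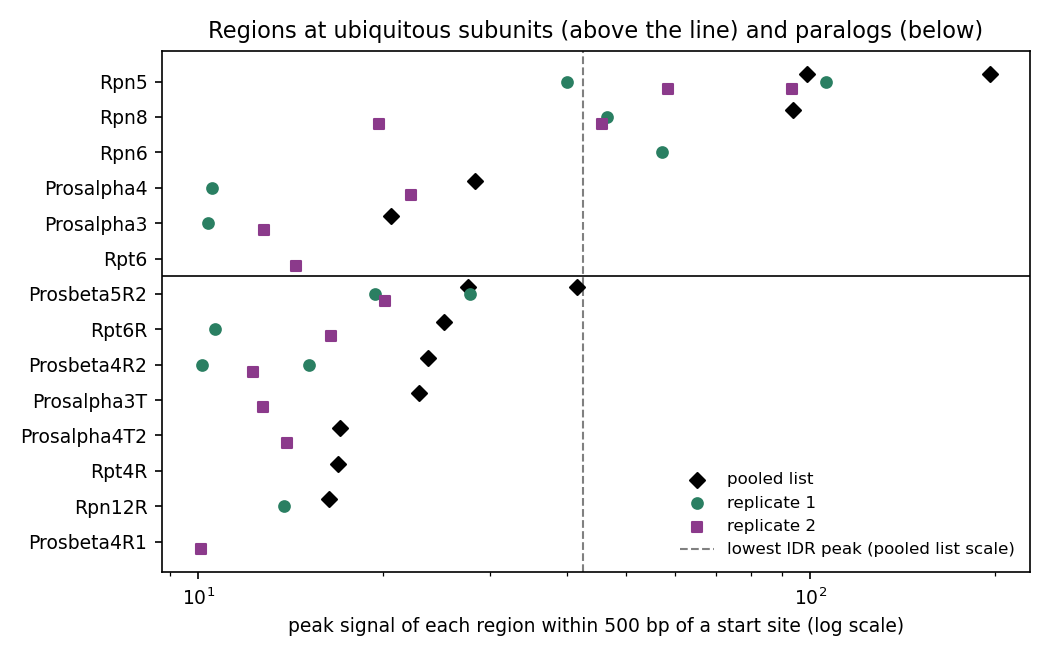
Signal of each region within 500 bp of a start site (horizontal logarithmic axis) for every member that has one, with ubiquitous subunits above the line and paralogs below it, and 1 symbol shape each for the pooled list and the replicates. In the pooled list Rpn5 (197 and 98.7) and Rpn8 (93.6) are to the right of the dashed line at the lowest IDR signal, 42.5, and the paralog regions lie between 16.35 and 41.5.

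The pooled list and the replicate lists hold 30000 regions each, and per their titles they include background, so a region there is a weaker record than an IDR peak. Their lowest signals were 16.03 in the pooled list, 8.61 in replicate 1 and 9.71 in replicate 2. In these lists the order of the classes was the other way round. A pooled region lay within 500 bp of a TSS for 4 of 32 ubiquitous subunits (12.5%, Wilson interval 4.97% to 28.1%) and 7 of 16 paralogs (43.75%, 23.1% to 66.8%), against 31.7% of all protein-coding genes. Replicate 1 had regions at 5 ubiquitous subunits (15.6%) and 4 paralogs (25%), against 35.4% of all genes. Replicate 2 had them at 5 ubiquitous subunits (15.6%) and 6 paralogs (37.5%), against 33.7% of all genes. The subunits were below the level of all genes in each list, while the paralogs were above it in the pooled list and in replicate 2 and below it in replicate 1. The level of all genes lay above the Wilson interval of the ubiquitous subunits in the pooled list and in both replicates (6.86% to 31.75% in each replicate), and inside the interval of the paralogs in all 3. Of the genes with a pooled region, the IDR list held 2 of 4 ubiquitous subunits and 0 of 7 paralogs, against 1748 of 4428 protein-coding genes (39.5%).

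**Figure D3:**
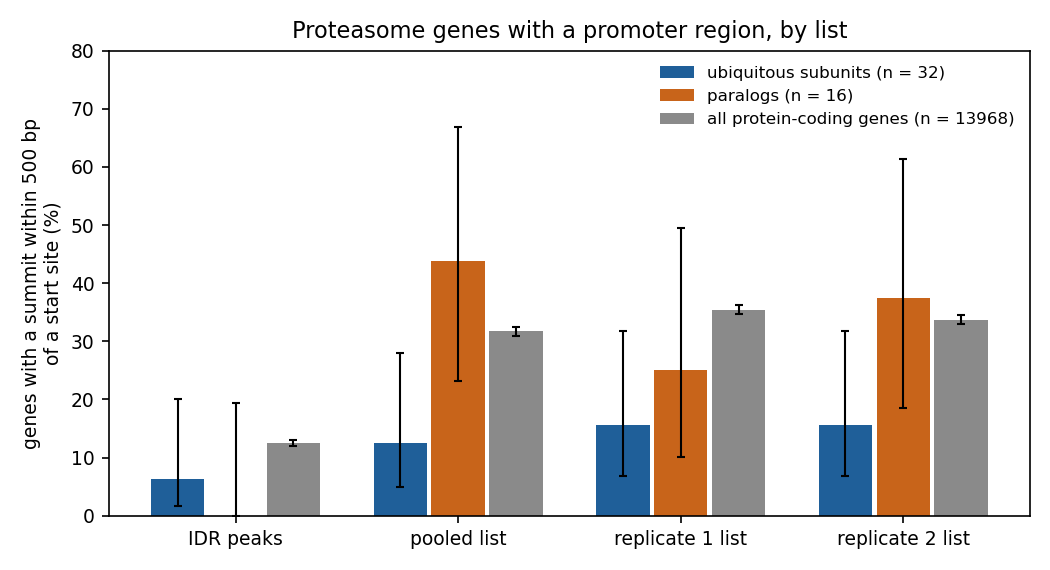
Percent of genes with a summit within 500 bp of a start site (vertical axis) in the IDR, pooled and replicate lists, for ubiquitous subunits, paralogs and all protein-coding genes; error bars are 95% Wilson intervals. The subunits stand below all genes in each list, and the paralogs have 0 genes in the IDR list but 43.75% in the pooled list.

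The 4 other ubiquitous subunits with a region in some list had weak or unmatched ones. Prosalpha3 and Prosalpha4 encode alpha ring subunits that help to form the gate of the core. Prosalpha3 had a signal of 20.6 in the pooled data, 10.4 in replicate 1 and 12.8 in replicate 2, between 228 bp and 334 bp upstream. Prosalpha4 had 28.3 in the pooled data, 10.5 in replicate 1 and 22.3 in replicate 2. The replicate 1 summit of Prosalpha4 lay 32 bp upstream, while the pooled and replicate 2 summits lay 285 bp and 287 bp upstream. Both genes stand head to head with another gene, Prosalpha3 with the augmin subunit gene dgt3 and Prosalpha4 with the katanin subunit gene kat80.

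Rpn6, the lid subunit that bridges to the core, had a strong region in only 1 replicate. Replicate 1 had a region with a signal of 57.25, a q-value of 0.000514 and rank 898, and replicate 2 had no region within 500 bp. The nearest pooled summit to this region was 7952 bp away. Among the 2868 strongest regions of replicate 1 alone, Rpn6 joined Rpn5 and Rpn8, which gave 3 of 32 ubiquitous subunits. The summit lay 151 bp upstream of an internal start of Rpn6 and 99 bp from the start of its neighbour ave. Rpt6, an ATPase of the regulatory particle, had only a replicate 2 region of signal 14.4, 359 bp upstream.

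The remaining 26 ubiquitous subunits had no region within 500 bp of a TSS in any of the lists. They were Prosalpha1, Prosalpha2, Prosalpha5, Prosalpha6 and Prosalpha7 of the alpha ring; all beta ring genes, Prosbeta1 to Prosbeta7, which include the catalytic subunits Prosbeta1, Prosbeta2 and Prosbeta5; and the ATPase genes Rpt1, Rpt2, Rpt3, Rpt4 and Rpt5. The scaffold genes Rpn1 and Rpn2, the ubiquitin receptors Rpn10 and Rpn13, and the lid genes Rpn3, Rpn7, Rpn9, Rpn11 and Rpn12 completed the group. Over all protein-coding genes, 7336 of 13968 had no region in any list. A region in at least 1 list was present for 6 of 32 ubiquitous subunits (18.75%) and 8 of 16 paralogs (50%), against 47.5% of all genes.

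Prosbeta5R2, a paralog of the chymotrypsin-like subunit Prosbeta5, had the strongest region among the paralogs. Its pooled signal was 41.5, just below the lowest signal in the IDR list, 42.5. It ranked 2962 in the pooled list, and the IDR list ends at 2868 peaks. The sequences at its summits and at those of the ATPase paralogs Rpt6R and Rpt4R are shown as examples of paralog regions upstream of a TSS and outside any annotated gene; each is on the strand of its gene, in build dm6, with the 11 summit bases in capitals.
Prosbeta5R2 outer summit, chr2L:17989911-17989991, plus strand: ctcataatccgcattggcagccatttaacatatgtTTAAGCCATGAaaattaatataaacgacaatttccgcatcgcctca
Prosbeta5R2 inner summit, chr2L:17990112-17990192, plus strand: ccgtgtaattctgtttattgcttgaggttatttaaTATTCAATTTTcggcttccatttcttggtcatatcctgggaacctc
Rpt6R summit, chr3R:30583785-30583865, minus strand: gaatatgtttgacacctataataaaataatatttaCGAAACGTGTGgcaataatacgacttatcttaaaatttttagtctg
Rpt4R summit, chr3L:11941547-11941627, plus strand: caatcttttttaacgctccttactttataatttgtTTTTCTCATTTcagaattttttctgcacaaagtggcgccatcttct
Their GC content was 37.0% for both Prosbeta5R2 summits, 25.9% for Rpt6R and 32.1% for Rpt4R. The Rpt4R region, at 16.9, was near the lowest signal of the pooled list, 16.03.

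The outer Prosbeta5R2 summit lay 467 bp upstream of the TSS, and the matching summits within 100 bp reached 27.8 in replicate 1 and 11.8 in replicate 2, a ratio of 2.35. An inner pooled summit 266 bp upstream had a signal of 27.6. The strongest replicate 2 region of this gene was elsewhere, 80 bp downstream of the TSS, at 20.2. So replicate 1 was the higher one at the outer place, and the replicates did not share their strongest region. When the 2868 strongest regions of replicate 1 alone took the place of the IDR list, Prosbeta5R2 was counted and the paralogs had 1 of 16. Rpt6R had 25.2 in the pooled data, 10.6 in replicate 1 and 16.5 in replicate 2, and its pooled and replicate 2 summits lay at the same base, 128 bp upstream. Prosbeta4R2, a paralog of a structural beta subunit, had 23.7 in the pooled data at 33 bp upstream of the TSS, over exonic sequence of the odorant receptor gene Or23a. The matching summits had 10.15 in replicate 1 and 12.3 in replicate 2, and replicate 1 had a further, stronger region of 15.2 at 259 bp upstream. Prosbeta5R2, Rpt6R and Prosbeta4R2 were the 3 paralogs with a region within 500 bp in the pooled list and in both replicates; 4 ubiquitous subunits had that, Rpn5, Rpn8, Prosalpha3 and Prosalpha4.

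The other paralog regions were in fewer lists. Prosalpha3T had a pooled signal of 23.0 and a replicate 2 signal of 12.8, both with summits in its own coding exon downstream of the TSS. Prosalpha4T2 had 17.05 in the pooled data and 13.95 in replicate 2, upstream of its TSS. Rpn12R, a paralog of a lid subunit, had 16.35 in the pooled data and 13.8 in replicate 1. Rpt4R had a pooled region only, of signal 16.9 at 325 bp upstream, and Prosbeta4R1 a replicate 2 region only, of signal 10.1. Several of these were near the lowest signal of their list. Only 4.4% of the pooled list was weaker than the Rpn12R region, 11.9% than that of Rpt4R and 13.6% than that of Prosalpha4T2. For Prosbeta4R1, 8.82% of the replicate 2 list was weaker. The q-values of all paralog regions within 500 bp of a TSS lay between 0.108 and 0.643, so none was below 0.05. Of the 2868 IDR peaks, 1079 were above 0.05 too, so this cutoff alone does not set the paralog regions apart from IDR peaks. No list held a region within 500 bp of a TSS for Prosalpha1R, Prosalpha4T1, Prosalpha6T, Prosbeta2R1, Prosbeta2R2, Prosbeta5R1, Rpn13R or Rpt3R.

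Distance to the nearest IDR summit, which needs no window, also differed between the classes. The median distance from a TSS was 14280 bp for the ubiquitous subunits (quartiles 7519 and 26000 bp) and 46940 bp for the paralogs (32450 and 53760 bp), against 14760 bp for all protein-coding genes (4374 and 35180 bp). Within 5000 bp there was an IDR summit for 7 of 32 ubiquitous subunits (21.9%) and 0 of 16 paralogs, against 26.9% of all genes. In the pooled list the order was the reverse: 8 of 32 ubiquitous subunits (25%) and 14 of 16 paralogs (87.5%) had a region within 5000 bp, against 68.1% of all genes. The median distance to a pooled summit was 11350 bp for the ubiquitous subunits and 1006 bp for the paralogs, against 1698 bp for all genes. Replicate 1 had medians of 7402 bp for the ubiquitous subunits and 1662 bp for the paralogs, against 1316 bp for all genes, and replicate 2 had 8866 bp and 2041 bp, against 1420 bp. By these medians the ubiquitous subunits lay at about the usual distance from an IDR summit but far from the weaker regions. The paralogs lay far from IDR summits. Their median was below that of all genes in the pooled list but above it in both replicate lists. With the stronger 50% of the IDR peaks alone, the median distances were 17670 bp for the ubiquitous subunits and 79580 bp for the paralogs, against 27070 bp for all genes, so the ubiquitous subunits were then nearer than the median gene. These differences were not tested.

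**Figure D4:**
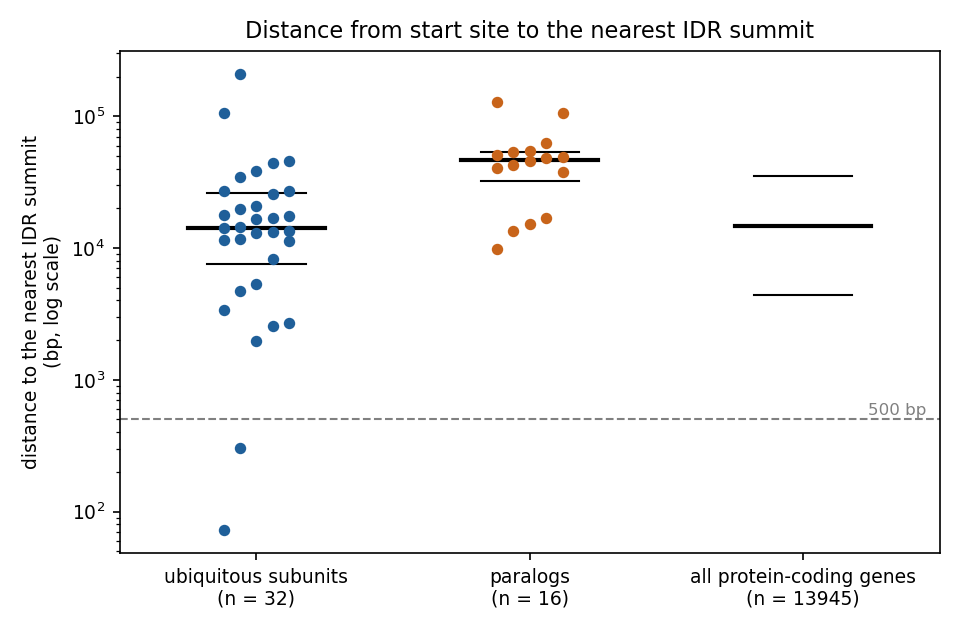
Distance in bp from the start site of each member to the nearest IDR summit (logarithmic axis), with 1 point per member; thick lines are medians and thin lines quartiles, also for all protein-coding genes. The closest paralog is at 9810 bp, while 7 ubiquitous subunits have a summit within 5000 bp.

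Among the ubiquitous subunits, the IDR peaks closest to a TSS beyond 500 bp stood at or within other genes. Prosbeta6, a structural beta subunit, had one 1982 bp upstream with a signal of 257, at CG4101 and Su(P). Prosalpha3 had one at 2565 bp with a signal of 65.2, in an intron of CG10543, and Prosalpha4 one at 2679 bp with a signal of 90.6, at the ethanolamine kinase gene eas. The closest ones of the paralogs were at 9810 bp from Prosbeta2R2, with a signal of 100.1 in an intron of cno, and at 13411 bp from Prosalpha4T1, with a signal of 43.9. Rpt3R had the third, at 15109 bp, with a signal of 393 in the pooled data, 181 in replicate 1 and 205 in replicate 2. The members farthest from an IDR summit were Prosalpha6, at 211133 bp, and Prosbeta5R2, at 129436 bp.

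Prosalpha1R and Prosalpha1 could not be assessed apart from each other. The protein of Prosalpha1R is identical to that of Prosalpha1 over all 244 residues, the 1359 aligned bases of the gene spans are identical, and so are 983 of 983 aligned bases of the 1000 bp upstream. The genes lie 1735 bp apart, so reads from them cannot be told apart, and no source used here says how the authors treated reads with several matches. Both genes are counted above as genes with no region within 500 bp. Without them, IDR promoter peaks stood at 2 of 31 ubiquitous subunits and 0 of 15 paralogs, and pooled regions at 4 of 31 and 7 of 15. The other 15 paralogs ranged from 38.4% amino acid identity to the subunit of the same name (Rpn13R with Rpn13) to 88.7% (Rpt6R with Rpt6). The ATPase paralogs Rpt3R and Rpt4R were at 81.7% and 82.1%, and the median over all 16 pairs was 60.6%.

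The classes also differed in gene structure, which the peak lists did not enter. A protein-coding neighbour started on the opposite strand within 1000 bp, head to head, for 19 of 32 ubiquitous subunits (59.4%) and 3 of 16 paralogs (18.75%), against 35.2% of all protein-coding genes. Such shared promoters had an IDR peak in 1 of 19 cases for the ubiquitous subunits, which was Rpn5, and in 0 of 3 for the paralogs, against 943 of 4914 head-to-head genes (19.2%). Rpn8 was not counted as head to head, although Slik starts on the opposite strand 325 bp upstream of its internal start. No coding intron was present in 4 ubiquitous subunit genes (12.5%) and 6 paralogs (37.5%), against 20.5% of all genes. A single annotated TSS was present in 22 ubiquitous subunit genes (68.75%) and 14 paralogs (87.5%), against 73.5% of all genes.

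Promoter sequence was searched for short words, a property that the peak lists did not use. The DNA replication-related element TATCGATA (DRE), bound by the factor Dref, stood in the stretch from 250 bp before to 50 bp after the 5′ end of 12 of 32 ubiquitous subunits (37.5%, Wilson interval 22.9% to 54.75%) and 0 of 16 paralogs, against 9.36% of all protein-coding genes. The 12 genes were Rpt5, Rpn9, Rpn7, Prosbeta2, Rpn12, Prosbeta6, Rpn13, Prosalpha5, Prosalpha3, Prosbeta1, Prosalpha6 and Rpn3. None of these 12 had an IDR peak at a TSS, against 213 of the 1307 protein-coding genes with the word (16.3%). Only 2 of the 32 ubiquitous subunits had such a peak, so a count of 0 of 12 carries little weight, and it was not tested. Neither Rpn5 nor Rpn8 held the DRE.

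Examples from the ATPase ring, the lid, the beta ring and the alpha ring are shown because the interval for this word in the ubiquitous subunits lies above the share of all genes; each run is 30 bases on the strand of the gene, in build dm6, with the DRE in capitals.
Rpt5, chr3R:23752819-23752848, plus strand: atcgctgtcacTATCGATAagcgccggcga
Rpn12, chr3L:16582801-16582830, plus strand: ttgttaaaataTATCGATAttaaagcacaa
Prosbeta2, chr3L:14999930-14999959, plus strand: ccatgaatataTATCGATAcaatatcgatt
Prosbeta6, chr3L:16610444-16610473, minus strand: gtatgtataccTATCGATAacgtttaagca
Prosalpha6, chr2L:10221324-10221353, plus strand: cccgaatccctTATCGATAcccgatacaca
The word starts 46 bp upstream of the 5′ end in Rpt5, 216 bp in Rpn12, 10 bp in Prosbeta2, 44 bp in Prosbeta6 and 16 bp in Prosalpha6. It reads the same on both strands.

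Of the 10 words searched on both strands, others also differed in share between the classes. CGATA, a word of the insulator protein BEAF-32 that is contained in the DRE, stood in 27 ubiquitous subunit promoters (84.4%) and 8 paralog promoters (50%), against 47.3% of all. GGTCACACT, the core of the element bound by M1BP, stood in 5 (15.6%) and 0, against 6.04%. The word GAGAG, known from the sites of GAGA factor, stood in 3 ubiquitous subunits (9.38%) and 6 paralogs (37.5%), against 29.7%. TGACNNNGC, a word of the antioxidant response factor encoded by cnc, stood in 5 (15.6%) and 1 (6.25%), against 8.62%. It can overlap the M1BP core, whose opposite strand holds TGACC. Prosalpha2, Prosbeta3, Rpn7 and Rpn1 held both words, so the shares of ubiquitous subunits with these words come largely from the same genes. The E-box CAGCTG stood in 1 ubiquitous subunit (3.12%) and 1 paralog (6.25%), against 17.6%. The TATA box TATAAA stood in 13 ubiquitous subunits and 5 paralogs, against 45.8% of all genes. The initiator word TCAGT stood in 18 and 8, against 51.5%. The Motif 7 core CATCNCTA stood in 4 and 1, against 6.41%. The E2F word GCGCGAAA stood in none of the 48 members, against 1.15%. The median GC content of these 300-base stretches was 33.5% for ubiquitous subunits and 32.7% for paralogs, against 38.0% for all protein-coding genes. Within 100 bp on either side of the 5′ end, CGATA stood in 71.9% of ubiquitous subunits and 18.75% of paralogs, against 39.25% of all genes. GAGAG stood there in 9.38% of ubiquitous subunits and 6.25% of paralogs, against 22.4%, so its higher share in paralogs was not kept. The order of the classes also changed for TATAAA (21.9% and 31.25%) and TCAGT (43.75% and 50%). A match is a string in the reference sequence and not a binding site.

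**Figure D5:**
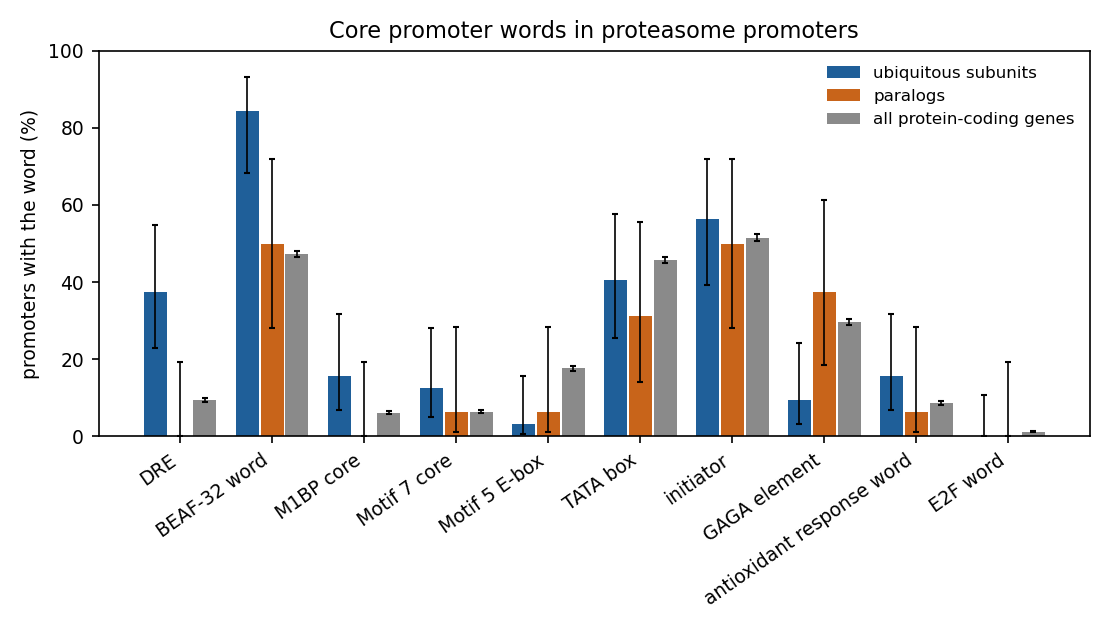
Percent of promoters (250 bp before to 50 bp after the 5′ end) that hold each of the searched words, for ubiquitous subunits, paralogs and all protein-coding genes; error bars are 95% Wilson intervals. The DRE is in 37.5% of ubiquitous subunit promoters and 0% of paralog promoters, against 9.36% of all.

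Of 22 genes that work with the proteasome, 4 had an IDR peak at a TSS (18.2%, Wilson interval 7.31% to 38.5%), against 12.5% of all protein-coding genes. The polyubiquitin gene Ubi-p63E had a signal of 138 in the pooled data, 65.0 in replicate 1 and 82.4 in replicate 2, 122 bp downstream of its TSS. The transcription factor gene cnc, whose mammalian relatives drive proteasome genes, had 124 in the pooled data, 42.8 in replicate 1 and 70.2 in replicate 2. Its summit lay 313 bp downstream of an annotated start. With only the outermost TSS of each gene, cnc was not counted and the partner genes had 3 of 22. Uba1, the ubiquitin-activating enzyme, had 110 in the pooled data, 43.0 in replicate 1 and 65.5 in replicate 2. PI31, a proteasome-binding protein, had 99.5 in the pooled data, 42.7 in replicate 1 and 51.2 in replicate 2. Replicate 2 was the higher one at all 4 of these genes, as at the inner Rpn5 peak, while replicate 1 was the higher one at the outer Rpn5 peak and the replicates were close at Rpn8. Over the whole lists replicate 2 was also the higher one, with a median signal of 12.7 against 11.5 in replicate 1. The lid gene Sem1, which the symbol rule does not take in, had no region within 500 bp of a TSS in any list.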

How the data were processed

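ChIP-seq peak lists on build dm6 were used: the IDR list, the list of the pooled replicates and 1 list per replicate. Per the file headers and labels, the deposited lists are narrowPeak tables; no source used here names the aligner, the peak caller or the scale of the signal. The deposited signal of a region is the authors' own value, and q-values were taken from the deposited −log10 of the q-value. The files hold no read totals, so the depth is unknown, and replicates are described side by side with no test. The lists on build dm3 were not used. Number of columns left unmapped: 0.

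Genes, TSSs and exons came from Ensembl release 115, and sequence from RefSeq's Release 6 genome. A gene had a promoter region when a summit lay within 500 bp of any annotated TSS; summits matched between lists within 100 bp. Proteins (longest coding sequence, translated) were aligned globally with BLOSUM62, gap opening 11 and extension 1, in Biopython 1.88. The scripts ran in Python 3.11.15 with scipy 1.17.1 (intervals), pandas 2.3.3, matplotlib 3.10.9 (figures) and numpy 2.4.6. The assignment was tested on simulated data, where 200 of 200 planted genes were recovered among 13968. Members, partner genes and words were chosen with earlier results of these data known. Every member is named; full values are given for members with a region within 500 bp, and for the 3 of each class nearest to an IDR summit beyond it. Among the 23 partner symbols, 22 were found in the annotation. Alternatives were the window, the peak threshold, 1 replicate alone, 1 TSS per gene, genes without a head-to-head neighbour, gene-body overlap, the matching distance and the promoter window.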

Additional observations from a re-analysis of the deposited data

How the results depend on the processing

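Of the alternative values, 69 kept to the reported value, meaning within 1.5 times it for counts and median distances and inside its Wilson interval for shares of words, and 33 did not. With a window of 200 bp, IDR promoter peaks stood at 1 ubiquitous subunit (Rpn5), 1147 of all protein-coding genes and 1 partner gene, and pooled regions at 1 ubiquitous subunit, 4 paralogs and 2688 of all genes. Counting all regions of the pooled list gave 4 ubiquitous subunits, 7 paralogs, 7 partner genes and 4428 of all genes. The stronger 50% of the IDR peaks gave 1121 of all genes, and median distances of 17670 bp for ubiquitous subunits and 79580 bp for paralogs, against 27070 bp for all genes. With 1 TSS per gene, 1 ubiquitous subunit (Rpn5) was counted. Among genes without a head-to-head neighbour, IDR promoter peaks stood at 1 of 13 ubiquitous subunits (7.69%) and 0 of 13 paralogs. The shares were 2 of 11 partner genes (18.2%) and 805 of 9054 protein-coding genes (8.89%). The 1 ubiquitous subunit was Rpn8, although Slik starts the other way near its internal start. Within 100 bp on either side of the 5′ end the DRE stood in 28.1% of ubiquitous subunits and 0% of paralogs, against 7.83% of all genes. With 1 replicate in place of both, the IDR-type count ranged from 2 to 3 for ubiquitous subunits and from 0 to 1 for paralogs, and the pooled-type count for paralogs from 4 to 6. The other moved values were shares of the remaining words in the narrower promoter window. Leaving out Prosalpha1 and Prosalpha1R, an alternative chosen after seeing the data, changed no count of genes with a region. The effect of depth was not assessed, since the files hold no read totals; the pooled list and each replicate list hold exactly 30000 regions. No paired analysis was possible because the study has only 1 group.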

Other observations

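Some regions that were strong in both replicates had no counterpart in the pooled list. Among the 1744 regions that were in the 2868 strongest of both replicates, 83 (4.76%) had no pooled summit within 500 bp. The genes of 3 members stood near such regions. Upstream of Rpn3, at 6589 bp, replicate 1 had a signal of 112.9 and replicate 2 of 106.3, and the nearest pooled summit was 15049 bp away. Downstream of the TSS of Prosbeta2R2, at 3994 bp, replicate 1 had 53.6 and replicate 2 had 76.6, with the nearest pooled summit at 5816 bp. Downstream of the TSS of Rpn11, at 7050 bp, replicate 1 had 32.9 and replicate 2, at 7005 bp, had 56.9. At the promoter level, 114 of the 1440 genes that were strong in both replicates lacked a pooled region (7.92%). Only 2 ubiquitous subunits and 0 paralogs were strong in both replicates, and neither subunit lacked a pooled region, so these counts say little about the members. The partner gene Keap1, which encodes the inhibitor of the cnc protein, was among the 114 genes, with 68.7 in replicate 1 and 77.9 in replicate 2.

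The strongest IDR peak among those nearest to a member was the one nearest to Rpt5, 5297 bp from its TSS. The summit lay 156 bp from a start of Hrd3, a gene of protein degradation at the endoplasmic reticulum, and 166 bp from one of PTPMT1. This peak had a signal of 665.7 in the pooled data, 336.9 in replicate 1 and 338.0 in replicate 2.

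The partner gene ntc, an F-box gene known from the testis, had a promoter region in replicate 1 only, with a signal of 103.7.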
